A study of Saccharomyces cerevisiae with 11 samples.

Results

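The peptides described here are 200 of the 12400 entries in a library of designed transcriptional activation domains, each 20 residues long. In 100 of them, called full variants, every tryptophan (W) of a parent peptide had been exchanged for leucine (L). In the other 100, called partial variants, only some had been. Members were taken by the design set that the deposited table names, and the parent of each was the designed peptide that results when every L is turned back into W. All 200 found a parent, and each of the 100 parents had 1 full and 1 partial variant, so that parent, partial and full variant form a trio. Peptides are named by the number they carry in the deposited table.

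The library was carried by Y2H Gold, a budding yeast reporter strain in which a working activation domain switches on resistance to the antifungal aureobasidin A. DNA from the pooled cells was sequenced and reads were counted for each peptide. The 11 samples were 1 pool at 0 h, pools grown for 12 and 24 h that are titled as untreated, and pools titled with 150 or 200 of the antifungal and grown for 12, 24, 48 and 72 h. All share the strain and the library. Doses are called label 150 and label 200, since the sample fields and the growth protocol give different units. That protocol describes antibiotic for every sample, so untreated and without antibiotic, as used below, follow the sample titles only. Each sample held 5 barcoded sub-libraries, called barcodes 1 to 5, which the series text calls biological replicates. Nothing says that they grew in separate cultures, so p-values measure the spread between sub-libraries, which may be technical. Unless the barcode number is a term of the fit, that spread includes lasting differences in level or ratio between barcodes. Such p-values do not measure how alike the change was from barcode to barcode.

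Activation domains are the parts of transcription factors that recruit coactivators, and many of them combine acidic residues with aromatic or bulky aliphatic ones. Acidic residues are thought to keep hydrophobic side chains exposed to solvent, where coactivators such as Mediator can bind them. Tryptophan carries a large aromatic ring and is often among the strongest contributors in activation domains, and leucine is an aliphatic residue that occurs in many natural ones.

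Each parent was built from glycine (G), aspartate (D) and tryptophan only, with as many D as W. Of the parents, 3 had 4 W, 20 had 5, 35 had 6, 30 had 7, 11 had 8 and 1 had 9. The full variants therefore had no W and between 4 and 9 L, always as many as D, so that the number of L and the number of D cannot be told apart among them. Of the partial variants, 3 kept 2 W, 85 kept 3, 11 kept 4 and 1 kept 5, and 23 had 2 L, 35 had 3 L and 42 had 4 L. Every variant kept the positions of its parent.

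The results turn on 5 trios, each given a letter. Trio A has parent 11991 with 7 W, partial variant 7491 with 3 W and 4 L, and full variant 7191 with 7 L. Trio B, with the same numbers of W and L, has parent 12024, partial variant 7524 and full variant 7224. Trio C has parent 12037 with 8 W, partial variant 7537 with 4 W and 4 L, and full variant 7237 with 8 L. Trio D, again with 8 hydrophobic positions and 4 W kept, has parent 12046, partial variant 7546 and full variant 7246. Trio E has parent 12087 with 6 W, partial variant 7587 with 3 W and 3 L, and full variant 7287 with 6 L.

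The 55 libraries held 683589 to 3392656 reads each and 96472307 reads together, and 0 pairs of libraries were identical. Reads were scaled to counts per 1000000 reads of the library (CPM). For a group of 5 libraries, 3 reads correspond to between 0.234 CPM at 72 h and 0.618 CPM at 24 h, both at label 200. Entries that open with a stop codon encode no peptide. They held 0.4 ± 0.0264% of reads at 0 h (SD, n = 5), had no read at 72 h at label 150, and had 513 reads at 72 h at label 200, a mean of 0.279 ± 0.0861 CPM per entry.

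The pools titled as untreated were compared with the 0 h pool first. Full variants had the larger loss of share, partial variants a smaller one, and parents stayed near their starting level. The median level of the full variants was 62.9 ± 4.77 CPM at 0 h, 29.8 ± 5.04 CPM at 12 h and 18.5 ± 3.24 CPM at 24 h (SD, n = 5). That of the partial variants was 93.2 ± 3.41, 67.1 ± 6.07 and 45.9 ± 3.9 CPM, and that of the parents 137 ± 25.8, 144 ± 25.8 and 122 ± 29.3 CPM. Over the whole library the median was 19.9 ± 0.852 CPM at first and 1.54 ± 0.207 CPM after 24 h. Stop-first entries fell in these pools too. Their share of reads was 0.0287 ± 0.00676% at 24 h, and edgeR called 99 of 124 tested lower than at 0 h and 0 higher (adjusted p under 0.05), with a median log2 change of -4.13; the barcode block described next called all 124 lower.

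At 24 h without antibiotic, edgeR's quasi-likelihood test called 8 of 97 full variants lower than at 0 h and 0 higher (Benjamini-Hochberg adjusted p under 0.05), beside 26.7% of all 9000 sequences tested lower and 0% higher. It called 2 of 89 partial variants and 0 of 97 parents lower. With 1 barcode left out, 3 to 7 full variants were lower, 3 of them without barcode 1, 4 without barcode 3 and 5 without barcode 2 or 5, and 0 partial variants without barcode 3 or 5, beside 1085 to 1796 of all sequences in place of 2399. At an unadjusted p under 0.05, 20 full variants, 5 partial variants and 0 parents were lower and 0 were higher. Barcode numbers pair the libraries of different samples, and with the barcode as a block 84 full variants were lower and 3 higher, 67 partial variants lower and 3 higher, and 22 parents lower and 20 higher. That fit called 74.6% of all sequences lower and 9.12% higher. With total-count scaling the median log2 change was -1.35 for full variants, -0.67 for partial variants, -0.05 for parents and -1.87 for all sequences. Other scalings moved all of these upward together: with TMM factors the partial median was 0.59 and the parent median 1.19, with 0 full and 0 partial variants called lower. Relative to the median of all sequences, partial variants lay 1.2 higher (log2) under each of total counts, TMM and DESeq2.

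Among full variants, the untreated loss was deepest in those with the fewest leucines. The median log2 change was -5.15 for 3 variants with 4 L, -2.08 for 19 tested variants with 5 L, -1.34 for 34 with 6 L, -1.01 for 29 with 7 L and -1.41 for 11 with 8 L. The single variant with 9 L had -0.77. Full variants 7200 and 7248, with 4 L each, and 7193, with 5 L, had the largest falls past the threshold. Variant 7200 went from 18.5 ± 4.27 to 0.379 ± 0.652 CPM, with 141 reads at 0 h and 3 at 24 h (edgeR adjusted p = 0.00823). Variant 7248 went from 21 ± 18.8 to 0.494 ± 0.48 CPM and was lower in 4 of 5 barcodes, the other having no read at 0 h (edgeR adjusted p = 0.0145). Variant 7193 went from 29.7 ± 28.7 to 1.05 ± 1.46 CPM, 25.1-fold lower and lower in all 5 barcodes (edgeR adjusted p = 0.0192).

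Partial variants had the opposite order by leucine number. Their median log2 change in the untreated pool was -0.40 for 21 tested variants with 2 L, -0.54 for 31 with 3 L and -1.04 for 37 with 4 L. Spearman's rho with this change was -0.39 for the number of L, -0.42 for D and -0.28 for W, so the order is not particular to leucine. The 2 called lower, 7556 and 7565, both had 4 W and 4 L. Variant 7556 went from 62.7 ± 36.1 to 7.42 ± 6.18 CPM (8.37-fold lower, edgeR adjusted p = 0.032), and variant 7565 from 25 ± 11.1 to 1.94 ± 3.19 CPM (12.3-fold lower, edgeR adjusted p = 0.0366).

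Under antibiotic the 3 kinds of peptide followed different courses. At label 200 the median level of the full variants was 24.8 ± 4.52, 12.3 ± 0.742, 2.34 ± 0.297 and 0.57 ± 0.224 CPM at 12, 24, 48 and 72 h. That of the partial variants was 71.1 ± 6.76, 95.9 ± 10.9, 55.3 ± 7.13 and 19.1 ± 3.63 CPM, with its highest value at 24 h. Parents had 138 ± 21.9, 135 ± 44.6, 50 ± 14.5 and 6.72 ± 1.15 CPM. So the parents had the highest median up to 24 h, and the partial variants at 48 and 72 h. At label 150 the full variants had 22.4 ± 4.5, 3.87 ± 2.8, 0.0678 ± 0.152 and 0 CPM, the partial variants 81.8 ± 10.7, 78.8 ± 11.9, 48.5 ± 5.32 and 25.7 ± 7.36 CPM, and the parents 150 ± 29.1, 141 ± 46.8, 76 ± 14.5 and 20.5 ± 6.85 CPM. There the partial variants had the highest median only at 72 h.

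Antibiotic pools at 24 h were set against the untreated pool of the same age. Partial variants held more of the pool than without antibiotic, and full variants divided into kept and lost ones. The summed share of the partial variants was 1.24 ± 0.0797% in the untreated pool, 2.06 ± 0.194% at label 150 and 2.23 ± 0.177% at label 200 (SD, n = 5). It lay above its own 0 h value in 5 of 5 barcodes at either label and in 0 of 5 without antibiotic. Parents had higher mean shares with antibiotic too, at 3.11 ± 0.526% untreated, 3.70 ± 0.474% at label 150 and 3.57 ± 0.346% at label 200. A larger share was thus not particular to the partial variants. The summed share of the full variants was 0.741 ± 0.115% untreated, 1.15 ± 0.207% at label 150 and 1.23 ± 0.214% at label 200. Their median level was lower with antibiotic than without, so the summed share was held by fewer of them. Full variants with a mean of at least 10 CPM numbered 78 in the untreated pool, 47 at label 150 and 60 at label 200.

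In that comparison edgeR called 18 of 77 tested full variants lower at label 150 than untreated and 0 higher, beside 37.7% of all 4416 sequences lower and 0% higher. It called 2 of 85 partial variants lower and 0 higher, and 4 of 97 parents lower and 0 higher. Without barcode 3 only 9 full variants were lower, and without any of barcodes 1, 2, 3 and 4 only 1 partial variant. With the barcode as a block, 34 full variants were lower and 22 higher, and 9 partial variants were lower and 45 higher, beside 58.2% and 19.2% of all sequences. Of the parents, the block called 18 lower and 34 higher. The median log2 change was 1.08 for partial variants, 0.46 for parents, -0.40 for full variants and -1.81 for all sequences.

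Label 200 at 24 h gave 0 calls among full and partial variants in edgeR, beside 8.07% of all 4695 sequences lower and 0% higher. With any 1 barcode left out, that library-wide count of 379 lower became 0 to 2. At an unadjusted p under 0.05, 4 full variants were higher and 3 lower, and 7 partial variants were higher and 1 lower. DESeq2 called 3 full variants higher and 2 lower, and 6 partial variants higher and 1 lower. The block called 24 of 82 full variants higher and 12 lower, and 48 of 86 partial variants higher and 7 lower, beside 16.8% of all sequences higher and 34.9% lower. Of 96 parents, edgeR called 2 lower and 0 higher without the block, and 15 lower and 28 higher with it. The median log2 change was 1.29 for partial variants, 0.41 for parents and -0.21 for full variants.

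The 72 h pools were set against 0 h, to show which peptides held or lost share. Most full variants were called lower, and the partial variants had the higher median at both labels. At label 150, edgeR called 72 of 97 full variants lower and 2 higher, beside 88.6% of all 8703 sequences lower and 1.96% higher. Without any of barcodes 1, 3, 4 and 5 only 1 full variant was higher. It called 31 of 89 partial variants lower and 4 higher, and 59 of 97 parents lower and 4 higher. The block gave 83 lower and 7 higher among the full variants and 58 lower and 20 higher among the partial ones, beside 92.8% and 4.49% of all. Of the 98 full variants, 96 partial variants and 98 parents with a read at 0 h, 50, 11 and 5 had no read in any of the 5 libraries at 72 h.

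At label 200, 74 of 97 full variants were called lower at 72 h and 5 higher, beside 91.2% of all 8755 sequences lower and 1.88% higher. Among the partial variants 40 of 89 were lower, which is 44.9%, and 7 higher, and among the parents 72 of 97 were lower and 4 higher. The block gave 84 lower and 7 higher among full variants and 59 lower and 19 higher among partial ones, beside 94.5% and 3.44% of all. The median log2 change was -6.41 for full variants, -1.44 for partial variants, -4.05 for parents, -6.65 for all sequences and -6.44 for stop-first entries. Of the peptides with a read at 0 h, 25 full variants, 10 partial variants and 2 parents lay at or under the mean level of a stop-first entry at 72 h. The comparisons of both labels share the 0 h libraries.

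Direction in these counts depends on the scaling. Total-count scaling asks whether a peptide gained or lost share. With TMM factors the median of all sequences at 72 h at label 200 moved up by 4.4 (log2), and with DESeq2's size factors by 2.4. The counts at label 200 then became 26 higher and 38 lower among full variants and 55 higher and 11 lower among partial ones with TMM, and 39 higher and 17 lower among partial ones with DESeq2. Relative to the median of all sequences, partial variants lay 5.21 higher with total counts, 5.54 with TMM and 5.44 with DESeq2, parents 2.6, 2.96 and 2.84, and full variants 0.242, 0.287 and 0.286. At label 150 the shifts were 0.718 and 1.7, TMM gave 23 partial variants higher and 20 lower and 9 full variants higher, and the full variants lay -0.306, 0.131 and -0.196 from the median of all sequences.

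Variants were next compared with their own parents in 1 model per pair, which asks whether the ratio of variant to parent differed between 0 h and the later sample. This ratio does not depend on how libraries are scaled. At 24 h without antibiotic, edgeR called 0 of 95 full and 0 of 87 partial pairs in either direction, beside 0% of all 1763 variant and parent pairs of the 19 substitution series. At an unadjusted p under 0.05, 12 full and 4 partial pairs were lower and 0 higher, and DESeq2 called 8 full and 3 partial pairs lower. The block called 69 full pairs lower and 1 higher, and 42 partial pairs lower and 3 higher, beside 33.8% of all pairs lower and 16.1% higher.

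By 72 h more full variants had lost than gained against their parents, and more partial variants had gained than lost. At label 150 the full variant lost in 44 of 95 pairs and gained in 3, beside 30.7% of all pairs lower and 8.17% higher, and the partial variant gained in 14 of 87 pairs and lost in 7. At label 200 the full variant lost in 21 pairs and gained in 6, beside 17.5% and 9.42% of all pairs, and the partial variant gained in 16 pairs and lost in 3. Several of these counts fell when 1 barcode was left out, and so did those of all pairs. At label 200 the 308 pairs called lower became 217 to 257, and the 166 called higher 119 to 144. At label 150 the 541 lower became 449 to 497, and the 144 higher 99 to 118. At label 200 the full gains numbered 2 without barcode 2 and 3 without barcode 1, 3 or 4, the full losses 13 without barcode 3 and 14 without barcode 1, and the partial losses 1 without barcode 3 or 4 and 2 without barcode 2 or 5. At label 150 the full gains numbered 1 without barcode 4 or 5, the partial gains 7, 9, 8 and 9 without barcodes 1, 2, 3 and 4, and the partial losses 4 without barcode 5. The median log2 change of the ratio at labels 150 and 200 was -3.86 and -1.16 for full pairs, 0.95 and 1.95 for partial pairs, and -0.98 and -0.34 for all pairs. With the block at label 150, 11 full pairs gained and 59 lost, and 45 partial pairs gained and 18 lost, beside 26.9% and 45.7% of all pairs. With the block at label 200, 17 full pairs gained and 43 lost, and 50 partial pairs gained and 12 lost, beside 29.6% and 36.6%.

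Each full variant was also set directly against the partial variant of the same parent, in a fit over 360 pairs of 4 residue exchanges. The full variant was the loser in most pairs called. At 72 h it lost in 44 of 87 trios at label 150 and gained in 3, beside 26.1% of all pairs lower and 1.39% higher. At label 200 it lost in 36 and gained in 2, beside 16.7% and 1.39% of all pairs. All pairs include the W-to-L pairs, which made up 44 of the 94 lower calls at label 150 and 36 of the 60 at label 200. The median log2 change of the ratio was -4.54 and -2.99. The block gave 55 losses and 11 gains at label 150, and 52 and 9 at label 200, beside 44.2% and 6.39%, then 34.2% and 7.22%, of all pairs. Without antibiotic at 24 h, edgeR called 0 of 87 in either direction beside 0% of all pairs, with 9 lower and 2 higher at an unadjusted p under 0.05 and 1 of each with DESeq2. The block called 34 losses and 14 gains there, beside 37.5% and 6.67% of all pairs.

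The exchanges of tryptophan for other aromatic residues stand in the same fits. At label 200, the full phenylalanine variant lost against the partial one in 6 of 94 pairs and gained in 3 (median log2 change -0.63), and the full tyrosine variant lost in 1 of 93 and gained in 0 (median 0.82). Against their parents, full phenylalanine variants gained in 10 of 95 pairs and lost in 5, and partial ones gained in 6 of 93 and lost in 3, with medians of 0.47 and 1.22. Full tyrosine variants lost in 36 of 93 pairs and partial ones in 44 of 94, with 0 gains in either, and medians of -3.10 and -3.79. These series stand side by side with no test between them.

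The change of the full variant differed with the number of W in its parent. At label 200 the median log2 change of the ratio of full to partial variant was -2.82 over 18 tested pairs whose parent had 5 W, -5.82 over 30 with 6 W, -3.07 over 24 with 7 W and -0.13 over 11 with 8 W. Of these pairs the full variant lost in 4, 21, 10 and 1 and gained in 0, 1, 0 and 1, beside 16.7% and 1.39% of all pairs. The bins at either end had positive medians on few pairs: 1.44 over 3 pairs with 4 W, 2 of them positive, and 1.5 for the 1 pair with 9 W. Both had 0 calls, and 1 higher in each with the block. The pairs with 4 W held few reads at 72 h at label 200: full and partial variant had 3 and 1, 0 and 5, and 11 and 11. At label 150 these 3 pairs had 0 and 0, 0 and 0, and 1 and 0 reads at 72 h. Their fitted ratios there (all positive, median 1.96, 0 calls) therefore show no direction. Several pairs with 5 W were also low at 72 h at label 200. Full and partial variant had 4 and 9 reads for 7193, 5 and 5 for 7204, and 5 and 4 for 7252, and their parents 6, 3 and 18. Others kept the partial variant, such as 7249 with 4 and 3157 reads. The medians for 5 W thus include ratios between few reads and do not show a smaller loss than for 6 W. Against the parent, the median was -0.86 for 5 W, -3.25 for 6 W, -1.37 for 7 W and 1.84 for 8 W, with -0.49 for 4 W and 0.60 for 9 W. Full variants of parents with 8 W had a positive change against their parent in 9 of 11 pairs. Of the 11, 2 were called higher and 2 lower, beside 9.42% and 17.5% of all pairs, and 7 higher with the block, beside 29.6%. At label 150 their median was 0.34, with 2 gains and 2 losses. These bins were not tested against each other, and the number of D changes with them.

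Partial variants had their largest median gains against parents with 6 or 7 W. At label 200 the median log2 change of the ratio was 1.33 for 18 pairs with 5 W, 2.17 for 30 with 6 W, 2.94 for 24 with 7 W and 0.13 for 11 with 8 W, beside -1.69 for 3 with 4 W and -0.89 for 1 with 9 W. Of the pairs with 5 to 8 W 0, 6, 9 and 1 were called higher, and 0, 1, 0 and 2 lower, beside 9.42% and 17.5% of all pairs. The 3 partial variants that kept only 2 W were each called lower than at 0 h at both labels. Of all sequences tested, 88.6% were called lower at label 150 and 91.2% at label 200, so these calls do not set them apart from the library. They had 1, 5 and 11 reads at 72 h at label 200.

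Among the full variants themselves, the share kept was larger with more leucines, and equally with more D. At label 200, 3 of 3 variants with 4 L and 19 of 19 tested with 5 L were lower at 72 h, then 30 of 34 with 6 L, 17 of 29 with 7 L, 5 of 11 with 8 L and 0 of 1 with 9 L. Those called higher numbered 0, 0, 1, 2, 1 and 1. Over all sequences tested at label 200, 91.2% were lower and 1.88% higher. At label 150, 3, 19, 30, 16, 4 and 0 were lower, beside 88.6% of all sequences. Spearman's rho of the number of L with the log2 change was 0.34 at label 200 and 0.39 at label 150 over the 100 variants, and it is the same for the number of D. Among the 100 parents, which have no L, the rho of the number of W was 0.35 and 0.4. The trend is thus not particular to peptides with L. Among the partial variants at label 200, 17 of 21 tested with 2 L were lower and 0 higher, 11 of 31 with 3 L were lower and 3 higher, and 12 of 37 with 4 L were lower and 4 higher, with a rho of 0.38. All variants share their libraries, and variants of 1 parent share their positions, so these values are descriptions.

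The order of residues was described in the same way. The number of neighbouring pairs of a D and a hydrophobic residue had a rho of 0.36 with the log2 change at label 200 in either series. It had a rho of 0.55 in the parents, and it grows with the number of residues. The mean position of the hydrophobic residues had a rho of 0.024 in full variants and -0.23 in partial ones. In 55 partial variants the kept W lay on average later than the L, and in 45 they did not. At label 200, 4 of 49 tested in the first group were higher and 18 lower, and 3 of 40 in the second were higher and 22 lower. Of all sequences tested, 1.88% were higher and 91.2% lower. Against their parents, 9 of 48 gained and 0 lost in the first group, and 7 of 39 gained and 3 lost in the second, with medians of 1.86 and 2.00. Of all variant and parent pairs, 9.42% were higher and 17.5% lower. These groups were not tested against each other.

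Within trios, the partial variant was the most abundant member in more trios at 72 h with antibiotic than at 0 h. At 0 h the parent led in 51 trios, the partial variant in 32 and the full variant in 17. At 24 h without antibiotic these numbers were 61, 27 and 12. At 72 h they were 37, 48 and 13 at label 150, where 2 trios had no read, and 31, 53 and 16 at label 200. Of the 84 trios with every member tested, 24 at label 200 had parent and full variant called lower and the partial variant not, and 30 had all members called lower. In the series as a whole, 74.2% of tested parents, 76.3% of full and 44.9% of partial variants were called lower. Whether the trio counts differ from what these rates alone would give was not tested. In 3 trios the parent was lower and the partial variant higher, and with the block in 13.

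Trio A holds such a case. Partial variant 7491, with 3 W at 7 hydrophobic positions, had 374, 159, 244, 217 and 235 CPM at 0 h in barcodes 1 to 5, and 2623, 1206, 2149, 1517 and 1545 CPM at 72 h at label 200. Every barcode was higher at 72 h, and the groups did not overlap. The rise was 7.36-fold at label 200 (log2 2.88, SE 0.809, edgeR adjusted p = 0.000782) and 4.03-fold at label 150 (edgeR adjusted p = 0.00795). It was gradual, with means of 225, 534 and 1085 CPM at 12, 24 and 48 h at label 200.

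Parent 11991 had 199, 13.4, 9.35, 21 and 245 CPM at 0 h and 15.3, 1.07, 2.95, 1.35 and 44 CPM at 72 h at label 200. It was lower in all 5 barcodes, 7.5-fold in the fit (edgeR adjusted p = 0.00701), but the groups overlapped and its barcodes started far apart. Full variant 7191 had 19.5, 138, 72, 95.6 and 412 CPM at 0 h and 0.349, 0, 1.47, 0.674 and 2.2 CPM at 72 h, with no overlap, and fell 147-fold (edgeR adjusted p = 2.62e-07). The ratio of partial variant to parent rose 61.2-fold (edgeR adjusted p = 0.00345), and that of full to partial variant fell 960-fold (log2 -9.91, SE 1.54, edgeR adjusted p = 3.5e-05). Both W-to-L versions thus ended far from each other although they differ at 3 positions only.

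Trio B held the full variant with the largest rise among those moving one way in every barcode. Variant 7224 had 33.4, 184, 207, 238 and 447 CPM at 0 h, 189, 1911, 1755, 2005 and 4100 CPM at 72 h at label 150, and 264, 2272, 2530, 3315 and 5699 CPM at label 200. Every barcode was higher than its own 0 h value, but barcode 1 at 72 h lay within the range of the 0 h group. The rise was 12.7-fold at label 200 (log2 3.67, SE 0.874, edgeR adjusted p = 9.6e-05) and 8.98-fold at label 150 (edgeR adjusted p = 0.00154). At 72 h the most abundant full variant of a library held 37.3 ± 5.71% of all full-variant reads at label 200. Without antibiotic 7224 had 250 CPM at 12 h and 229 CPM at 24 h, close to its 222 CPM at 0 h.

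Partial variant 7524 rose 5.35-fold at label 200 (edgeR adjusted p = 0.00663), with barcode 1 far above the others both at 0 h and at 72 h. Parent 12024 had 224, 622, 614, 830 and 106 CPM at 0 h and 144, 709, 612, 1037 and 83.2 CPM at 72 h at label 200, and its groups overlapped (edgeR adjusted p = 0.897). The ratio of full variant to parent rose 11.8-fold (edgeR adjusted p = 0.0454), a call lost when any of barcodes 1, 2, 3 and 4 was left out (edgeR adjusted p = 0.0991 to 0.124). At label 150 the change of this ratio did not pass (5.61-fold, edgeR adjusted p = 0.145; with the block, 1.18e-06 and higher, in 5 of 5 barcodes).

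Other full variants named for their rise at label 200 were 7201, 7269 and 7288, with 9, 8 and 6 L. Variant 7201, the only full variant with 9 L, had 461, 45.1, 130, 154 and 347 CPM at 0 h and 2997, 306, 827, 914 and 1898 CPM at 72 h. It rose 6.1-fold (edgeR adjusted p = 0.00339), higher in 5 of 5 barcodes with groups that overlapped. Its parent 12001 went from 1657 to 11149 reads and was called higher too, a call lost without barcode 2 or 3. The ratio of 7201 to this parent did not pass (1.51-fold higher, edgeR adjusted p = 0.774). Variant 7269, the only full variant with 4 L in a row, had 193, 150, 132, 345 and 201 CPM at 0 h and 875, 838, 702, 1798 and 729 CPM at 72 h. These groups did not overlap, and the rise was 4.84-fold (edgeR adjusted p = 0.00728). Variant 7288 went from 168 ± 111 to 783 ± 603 CPM, a 4.65-fold rise (edgeR adjusted p = 0.0165), and at label 150 to 825 ± 788 CPM (4.9-fold, edgeR adjusted p = 0.0289).

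A further full variant, 7210, was called higher (7.13-fold, edgeR adjusted p = 0.0189), with 4 of 5 barcodes going up, which the naming rule does not allow, so it was chosen after its value was seen. Its parent 12010 was called higher too, from 7229 to 42412 reads. The ratio of 7210 to this parent did not pass (1.35-fold lower, edgeR adjusted p = 0.932). The parents of 7224, 7269 and 7288 were not called higher. The 5 called variants had 6 to 9 L and 4 to 9 neighbouring pairs of D and L, and the 74 called lower had 4 to 8 L and 0 to 8 such pairs.

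Full variant 7226, with 6 L, was the most abundant of its kind at 0 h. Its level was 840 ± 408 CPM at 0 h, 1711 CPM at 24 h and 749 CPM at 72 h at label 150, and 573 ± 283 CPM at 72 h at label 200. The 72 h comparisons gave no call (edgeR adjusted p = 0.825 and 0.495), although with the block label 200 was lower in 5 of 5 barcodes (edgeR adjusted p = 0.00369), and its highest mean at label 150 was that at 24 h. Partial variant 7526 of the same parent had 140, 259, 119, 20.1 and 35.9 CPM at 0 h and 804, 1569, 570, 123 and 138 CPM at 72 h at label 200. It rose 5.57-fold with overlapping groups (edgeR adjusted p = 0.00747), and 66.6-fold against the parent (edgeR adjusted p = 0.00319).

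Of the other partial variants named for a rise, 7553 had the highest level at 72 h with either label. It had 208, 354, 340, 222 and 573 CPM at 0 h, and 811, 1821, 1835, 1268 and 3865 CPM at 72 h at label 200. The groups did not overlap, and the rise was 5.65-fold (edgeR adjusted p = 0.00308). Against its parent it gained 19.4-fold (edgeR adjusted p = 0.0346), a call lost without any of barcodes 1, 2, 4 and 5 (edgeR adjusted p = 0.0632 to 0.0899).

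Partial variant 7550, with 3 W and 3 L, had 220, 268, 66.8, 65.4 and 51.4 CPM at 0 h and 1687, 2064, 493, 621 and 209 CPM at 72 h at label 200, a 7.56-fold rise (edgeR adjusted p = 0.00148). Every barcode went up, with barcode 5 at 72 h inside the 0 h range. Its parent 12050 rose too, from 104 ± 101 to 1121 ± 1125 CPM (10.8-fold, edgeR adjusted p = 0.00124), whereas full variant 7250 had 76.4 ± 65.1 and 94.9 ± 75.3 CPM (edgeR adjusted p = 0.731). Here the peptides that kept W were the ones called higher. Partial variant 7540 went from 95.1 ± 78.3 to 380 ± 349 CPM, a 3.99-fold rise (edgeR adjusted p = 0.0294), lost without barcode 1 or 2 (edgeR adjusted p = 0.0609 and 0.0645). Partial variant 7557 had 511 ± 338 CPM at 0 h and 1236 ± 932 CPM at 72 h at label 150, a difference that did not pass (2.42-fold, edgeR adjusted p = 0.103; with the block, 7.79e-06 and higher).

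The 3 largest falls past the threshold among full variants at label 200 were those of 7197, 7236 and trio E's 7287, with 6 L each. Variant 7197 had 65.7 ± 37 CPM at 0 h and no read at 72 h at either label, at least 291-fold lower at label 200 by pooled reads (edgeR adjusted p = 4.12e-08). Variant 7236 had 47.2 ± 41.7 CPM at 0 h and no read either, at least 199-fold lower at label 200 (edgeR adjusted p = 4.57e-08). These bounds set the 529 and 361 reads among all 7758449 reads of the 0 h pool against a floor of 3 reads among all 12813242 of the 72 h pool, not the mean CPM. The first was lost next to a partial variant, 7497, that had 820 reads at 72 h.

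Partial variants 7500, 7504 and 7578, with 2, 3 and 3 W, had the largest falls of their kind. Variant 7500 fell from 141 ± 171 CPM to 1 read at label 200 (edgeR adjusted p = 3.44e-08), and 7504 from 355 ± 406 to 0.544 ± 0.88 CPM (edgeR adjusted p = 2.69e-08). Variant 7578 fell from 240 ± 228 to 0.515 ± 0.709 CPM (edgeR adjusted p = 5.04e-08). Parent 12078 of the last had 117 ± 64.6 CPM at 0 h and 63.1 ± 34.2 CPM at 72 h (edgeR adjusted p = 0.318; with the block, 0.0102 and lower), and the ratio of partial variant to parent fell 184-fold (edgeR adjusted p = 0.000869). So keeping 3 W did not keep this peptide in the pool.

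Trio E shows a full variant lost while the call on its parent did not pass. Full variant 7287 had 174, 100, 177, 117 and 18.3 CPM at 0 h, and 2 reads in all at 72 h at label 200, both in barcode 3. Parent 12087 had 209, 44.4, 455, 41.9 and 35.9 CPM at 0 h and 67.3, 11.1, 171, 10.1 and 9.68 CPM at 72 h. The parent's groups overlapped, and its change was not called (edgeR adjusted p = 0.106; with the block, 7.28e-08 and lower). The ratio of full variant to parent fell (log2 -8.29, SE 1.51, edgeR adjusted p = 0.00022). Partial variant 7587 had 29.1 ± 26.4 CPM at 0 h and 5.93 ± 8.05 CPM at 72 h (edgeR adjusted p = 0.0213, and 0.0625 without barcode 4), and the ratio of full to partial variant fell (log2 -7.01, SE 1.6, edgeR adjusted p = 0.0017).

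Large losses of full variants against their parents were also those of 7227 (234-fold, edgeR adjusted p = 0.000449), 7276 (232-fold, edgeR adjusted p = 0.00141) and 7277 (215-fold, edgeR adjusted p = 0.000794). They had 7, 5 and 12 reads at 72 h at label 200, from 1282, 1043 and 1373 at 0 h.

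Trio D had the largest gain of a partial variant against its parent. Parent 12046 had 1323, 752, 983, 406 and 167 CPM at 0 h and 1.4, 3.57, 1.47, 2.02 and 0 CPM at 72 h at label 200. It fell 413-fold (edgeR adjusted p = 1.24e-08), although it had 1076 CPM in the untreated pool at 24 h. Its means at label 200 were 1139, 237 and 9.16 CPM at 12, 24 and 48 h, so the loss came after 12 h.

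Partial variant 7546 of trio D had 440, 76.8, 268, 237 and 244 CPM at 0 h and 1268, 181, 1088, 740 and 551 CPM at 72 h. Each barcode went up, but the groups overlapped and the change was not called (3.02-fold, edgeR adjusted p = 0.0581; with the block, 5.25e-13 and higher). The ratio of partial variant to parent rose 1290-fold (log2 10.33, SE 1.49, edgeR adjusted p = 2.22e-05). Full variant 7246 was scarcer, at 28.6 ± 17.3 CPM at 0 h and 3.79 ± 4.01 CPM at 72 h, and its ratio to the parent rose 45.6-fold (edgeR adjusted p = 0.00261). Its own level fell 7.32-fold (edgeR adjusted p = 0.0038), so that gain is one over a parent with the larger loss.

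Other partial variants with large gains were 7542 (281-fold against its parent, edgeR adjusted p = 0.00104) and 7579 (88.9-fold, edgeR adjusted p = 0.0021). Their parents went from 1772 to 5 and from 2501 to 17 reads between 0 h and 72 h at label 200. Variant 7542 had 99.5 CPM at 0 h and 64 CPM at 72 h (edgeR adjusted p = 0.477), and 7579 fell from 125 to 31.9 CPM (edgeR adjusted p = 0.0351). The last call was lost without any of barcodes 1, 3, 4 and 5 (edgeR adjusted p = 0.0568 to 0.0663). The gains over the parents thus came with no called gain of share.

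Besides 7578, the partial variants with the largest losses against their parents were 7565 (32.7-fold, edgeR adjusted p = 0.0195) and 7533 (17.3-fold, edgeR adjusted p = 0.0371). Both had 4 W and 4 L, and they had 25 and 20.9 CPM at 0 h. Their parents 12065 and 12033 held 848 and 1091 CPM at 72 h. The call on 7565 was lost without any of barcodes 2, 3 and 4 (edgeR adjusted p = 0.0561 to 0.0648), and that on 7533 without any of barcodes 3, 4 and 5 (edgeR adjusted p = 0.113 to 0.149).

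Trio C had the reverse of the usual order, with the full variant kept and both W-bearing relatives lower. Full variant 7237 had 671, 33.1, 79, 117 and 64.8 CPM at 0 h and 697, 28.6, 70.7, 109 and 42.2 CPM at 72 h at label 200, and its groups overlapped (edgeR adjusted p = 0.976). Partial variant 7537 had 159, 130, 230, 220 and 34.5 CPM at 0 h and 1.74, 2.14, 2.06, 4.05 and 0.44 CPM at 72 h, with no overlap, and fell 73.4-fold (edgeR adjusted p = 6.42e-07). Parent 12037 fell from 50.7 ± 33.6 to 1.8 ± 1.81 CPM (28.4-fold, edgeR adjusted p = 1.79e-05). The ratio of full to partial variant rose 59.8-fold (log2 5.90, SE 1.37, edgeR adjusted p = 0.00189). Against the parent the full variant gained 30.5-fold (edgeR adjusted p = 0.0087).

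The other full variant called above its partial one at label 200 was 7258, with 6 L. It had 29.6, 19, 711, 28.5 and 27.5 CPM at 0 h and 17.4, 18.6, 577, 16.2 and 29.5 CPM at 72 h, with barcode 3 far above the rest in both samples (edgeR adjusted p = 0.76). Partial variant 7558 had 147, 331, 730, 190 and 215 CPM at 0 h and 0.698, 4.65, 15.9, 2.7 and 5.28 CPM at 72 h, with no overlap, and the ratio of full to partial variant rose 55.2-fold (edgeR adjusted p = 0.00138), higher in 5 of 5 barcodes. Full variants that gained against their parents also included 7260 (26.4-fold, edgeR adjusted p = 0.00958) and 7232 (18.6-fold, edgeR adjusted p = 0.0256), both with 7 L. The first call was lost without barcode 1 or 2 (edgeR adjusted p = 0.0508 and 0.0567), and the second without any of barcodes 2, 3 and 4 (edgeR adjusted p = 0.0672 to 0.0867).

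Besides trio A, the full variants named for a loss against their partial variants at label 200 were 7219, 7230 and 7197, and each partial variant kept 3 W. Variant 7219 had 8 reads at 72 h and its partial variant 7519 had 4647, from 1279 and 1003 at 0 h, so the ratio fell 590-fold (edgeR adjusted p = 1.22e-05). Variant 7230 had 2 reads and its partial variant 7530 had 6415, from 342 and 1368 at 0 h (edgeR adjusted p = 6.23e-05). Variant 7197 had no read and its partial variant 7497 had 820, from 529 and 1271 (edgeR adjusted p = 0.00127). In each of these trios the members share the number and place of their D, and full and partial variant differ at 3 positions only.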

How the data were processed

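The authors deposited read counts per designed peptide for 11 samples of 5 barcoded libraries each, as whole numbers with no normalization, per the file headers. Cutadapt and STAR are named in the submitters' processing notes; their settings, and how reads were assigned to peptides, are not given in the sources used here. Library totals ranged from 683589 to 3392656 reads.

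Members and lists were chosen with earlier results of these data known. Groups follow the sample titles. Counts were tested with edgeR 4.0.16 (R 4.3.3), by its quasi-likelihood test with total-count library sizes, on sequences that averaged 10 or more counts per library in the comparison. P-values were adjusted by Benjamini-Hochberg over all sequences or pairs of a fit, and 0.05 was the threshold. Changes of a variant over its parent came from 1 model per pair with a library term and an interaction term, over 1763 pairs of 19 substitution series. Full against partial variants were fitted likewise over 360 pairs of 4 exchanges. Summaries used Python 3.11.15, pandas 2.3.3, numpy 2.4.6 and scipy 1.17.1. The fits of sequences and of variant and parent pairs were tested on simulated data, where sequence calls held somewhat more false ones than the threshold allows. Simulated libraries were drawn independently with the spread of the 0 h libraries, without pairing by barcode, and few sequences changed. These rates therefore need not hold for the real libraries. Full against partial pairs were not simulated. The smaller of the changes put in were mostly not called. In pairs of variant and parent, most of the larger changes were missed as well. A change that missed the threshold is therefore not shown to be absent.

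Barcode numbers were taken as pairs in the block fits and in counts of barcodes, and not in the main fits. Deviations from group means correlated at 0.43 to 0.801 between libraries of the same number and at -0.23 to -0.0888 between others. In each comparison 5 of 5 barcodes matched their own number best. DESeq2 1.42.0, limma 3.58.1 (log2 ratios of CPM with prior counts of 0.5, 2 and 10), TMM factors, other filters, a single fit of all groups, the barcode as a block and the omission of each barcode in turn were alternatives.

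By rule, the named peptides were, at 72 h at label 200 and moving one way in all 5 barcodes, in each series the 6 called peptides that rose most and the 3 that fell most, the 4 largest changes each way against the parent, and the 4 largest each way of full against partial variant. The 3 most abundant at 72 h at each label, the 3 largest untreated falls and the relatives of all these were added, giving 99 peptides, of which the text details those its statements rest on. Amino acid sequences are not printed. CPM floors cover counting error only: no molecular identifiers are described, so PCR copies of 1 molecule may count more than once.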

Additional observations from a re-analysis of the deposited data

Results flagged for a closer look

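Of 63 groups of 5 libraries examined, 6 held a library that stood apart from the other 4 by Dixon's criterion, where chance alone gives about 1 in 20. Partial variants held 1.97% of reads in barcode 1 at 72 h at label 200, the highest of the 5 libraries. Full variant 7269 had 1798 CPM in barcode 4 at 72 h at label 200. Partial variant 7524 of trio B stood apart in barcode 1 in 3 samples, at 790 CPM at 0 h, 2051 CPM at 72 h at label 150 and 4528 CPM at 72 h at label 200. Partial variant 7540 had 824 CPM in barcode 2 at 72 h at label 150.

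The summed share of the partial variants moved in opposite directions between 0 h and 24 h with and without antibiotic. It changed by 0.466 percentage points at label 150 and by 0.641 at label 200, upward in 5 of 5 barcodes each, and by -0.347 in the untreated pool, downward in 5 of 5. The difference between these changes was not tested, and all of them share the 0 h libraries.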

How the results depend on the processing

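Counts of calls moved most with the barcode block, the scaling and the filter; where no reason is named, the cause was not tested. Pairs of numbers are full then partial variants. Without antibiotic at 24 h, the block gave 84 and 67 lower and 3 and 3 higher, TMM factors, a minimum mean of 50 counts and all groups in 1 fit each gave 0 and 0 lower, and DESeq2 gave 0 partial variants lower and 1 higher. For label 150 at 24 h, the block gave 22 and 45 higher and 34 and 9 lower, and all groups in 1 fit 4 and 9 higher and 31 full variants lower. DESeq2 gave 2 full variants higher there, TMM 1 partial variant lower, no filter 5 partial variants lower, and the 50-count minimum, which tests fewer sequences, 1 and 0 lower. For label 200 at 24 h, the block gave 24 and 48 higher and 12 and 7 lower, DESeq2 3 and 6 higher and 2 and 1 lower, and all groups in 1 fit 3 and 6 higher and 3 and 1 lower. For label 150 at 72 h, TMM gave 9 and 23 higher and 20 partial variants lower, DESeq2 8 and 24 higher, the block 7 and 20 higher and 58 partial variants lower, all groups in 1 fit 4 full variants higher, and the 50-count minimum 38 full variants lower. For label 200 at 72 h, TMM gave 26 and 55 higher and 38 and 11 lower, DESeq2 16 and 39 higher and 17 partial variants lower, the block 19 partial variants higher, and the 50-count minimum 38 full variants lower.

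Against the parent, untreated at 24 h, the block gave 1 and 3 higher and 69 and 42 lower, and DESeq2 8 and 3 lower. For label 150 at 72 h the block gave 11 and 45 higher and 18 partial variants lower, and DESeq2 6 full variants higher. Limma gave 5 full variants higher and 28 lower with a prior count of 2, 6 higher and 14 lower with a prior of 10, and 4 partial variants lower with a prior of 10, and the 50-count minimum gave 3 partial variants lower. For label 200 the block gave 17 and 50 higher and 43 and 12 lower, DESeq2 32 partial variants higher, limma with a prior of 10 gave 12 full variants higher and 12 lower, limma with a prior of 2 gave 5 partial variants lower, and the 50-count minimum 1. For full against partial variants, untreated, the block gave 14 higher and 34 lower and DESeq2 1 and 1. For label 150 the block gave 11 higher, limma with a prior of 2 gave 5 higher and with a prior of 10 gave 21 lower. For label 200 the block gave 9 higher, limma 4 higher with either of those priors, and 21 lower with a prior of 10. The change of the median CPM since 0 h, in place of that of the summed share, was -1.75, -6.98 and -5.91 (log2) for full variants and -1.02, -1.88 and -2.28 for partial ones, untreated at 24 h and at 72 h at labels 150 and 200.

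Leaving out 1 barcode at a time gave 3 to 7 full and 0 to 2 partial variants lower untreated at 24 h, with the fewest full calls without barcode 1 and 0 partial calls without barcode 3 or 5. For label 150 at 24 h it gave 9 to 15 full variants lower, 9 without barcode 3, and 1 to 2 partial variants. At 72 h it gave 1 to 2 and 3 to 4 higher and 69 to 70 and 26 to 31 lower at label 150, and 4 to 5 and 5 to 7 higher and 71 to 74 and 35 to 38 lower at label 200. Against the parent it gave 1 to 2 and 7 to 10 higher and 36 to 41 and 4 to 6 lower at label 150, with the fewest partial gains, 7, without barcode 1. At label 200 it gave 2 to 5 and 12 to 15 higher and 13 to 19 and 1 to 3 lower, with 2 full gains without barcode 2 and 13 full losses without barcode 3. Full against partial variants gave 2 to 3 higher and 38 to 42 lower at label 150, and 2 higher and 28 to 32 lower at label 200. Other counts stayed at 0 in both directions. The change of summed share since 0 h (log2) lay between -0.663 and -0.592, -0.705 and -0.576, and -0.485 and -0.323 for full variants, and between -0.379 and -0.34, -0.0675 and -0.0138, and 0.000563 and 0.113 for partial variants, in the order of samples above.

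Of 2169 values of named peptides under all alternatives, 56 changed direction. At 72 h at label 200, TMM turned the log2 change upward for 7226 (4.16), 7232 (4.28), 7233 (1.82), 7237 (4.77), 7246 (1.88), 7253 (4.45), 7256 (4.67), 7257 (0.37), 7258 (4.68), 7260 (3.74), 7265 (2.50), 7497 (3.34), 7533 (3.84), 7536 (1.94), 7542 (4.02), 7556 (1.94), 7560 (4.11), 7565 (1.38), 7576 (0.33), 7579 (2.81), 7587 (2.44), 11991 (1.94), 12019 (1.19), 12026 (0.96), 12027 (3.96), 12030 (0.64), 12040 (3.23), 12053 (2.97), 12056 (3.73), 12057 (4.69), 12058 (1.26), 12060 (1.70), 12076 (4.19), 12077 (4.32), 12078 (3.86), 12087 (3.39) and 12088 (4.21). DESeq2 did so for 7226 (2.16), 7232 (2.37), 7253 (2.26), 7256 (2.38), 7260 (1.70), 7536 (0.046), 7542 (2.02), 7560 (1.98), 7579 (0.75), 7587 (0.23), 12027 (2.02), 12053 (0.61), 12057 (2.64), 12076 (2.32), 12077 (2.30), 12078 (1.75) and 12088 (2.10). Limma with a prior count of 10 turned the change against the parent upward for 7230 (0.68) and 7236 (1.25), which had 2 and 0 reads at 72 h. The block lost 0 calls on named peptides and added 46.

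Counts of 0 to 3 reads at 72 h limit the folds of the peptides that fell furthest. The TMM and DESeq2 shifts apply to all sequences alike, so ratios within a trio are free of them. The 200 variants come from 100 parents, and the numbers of L, W and D move together.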
